A study of Mus musculus with 6 samples.

Results

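Rbm3 and Cirbp are the 2 genes described here, out of 8949 genes that the array's annotation names, and each was read by 1 of the 12422 probe sets compared. They were taken by gene symbol: every probe set whose platform annotation names either gene was used. The Cirbp probe set names that gene alone. The Rbm3 probe set also names the pseudogene Rbm3-ps, so its signal cannot be assigned to Rbm3 alone, and every Rbm3 value below carries that reservation. The pair was chosen by the values of the same comparison of Hdh4/Q80 with wild-type striatum, so their levels and differences are given as a description with no test.

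RBM3 and CIRBP are small RNA-binding proteins with a single RNA recognition motif followed by a glycine-rich tail. Both are induced when mammalian cells or tissues are mildly cooled and are reduced by warming, the opposite of the heat shock proteins. They bind messenger RNAs and affect their stability and translation, and both follow the daily rhythm of body temperature. In mouse models of neurodegeneration, RBM3 induced by cooling has been linked to the regrowth of synapses, and in mouse cells CIRBP binds transcripts of the circadian clock.

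The arrays carried RNA from the striatum, the forebrain region most affected in Huntington's disease, of 3 Hdh4/Q80 mice (replicates 7, 8 and 9) and 3 wild-type littermates (replicates 4, 5 and 6), 1 array per mouse. By the labels the animals were 12-month-old C57BL/6 females. In Hdh4/Q80 mice the endogenous huntingtin gene, Htt, holds a lengthened CAG tract; the sources used here give neither zygosity nor the time of day and body temperature at collection. Values are log2 expression after robust multi-array average (RMA), which sets the overall intensity distribution of the arrays equal and therefore shows each transcript relative to the rest of the array. The 3 mutants and 3 wild types limit the precision, and no probe set could be called absent.

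The arrays were close to each other as a whole, with medians between 7.105 and 7.134. One array, Hdh4/Q80 replicate 8, differed from the others. Its correlations with them averaged 0.9917, where the remaining arrays averaged 0.9949 to 0.9966, and its score on the first principal component was 19.95, with the others between -6.9 and -1.28. Results are therefore also given without it. The labelled tissue was checked with spiny projection neuron markers. Of 12 such markers 6 were measured, among them Penk, the enkephalin precursor, at 12.94 to 13.14 in Hdh4/Q80 and 12.92 to 13.14 in wild-type striatum. Drd2, a dopamine receptor, read 9.52 to 9.88 in Hdh4/Q80 and 9.61 to 9.9 in wild type. Rgs9 was dim, at 5.62 to 5.76 and 5.5 to 5.66, below the lower quartile of every array. The measured markers are summarised as a list below, and the unmeasured ones could not be checked.

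The start regions of Cirbp are shown because induction of this gene by mild cold has been traced to its promoter. The RefSeq sequences (build GRCm38.p6, plus strand) hold 2 annotated starts for Cirbp, each as 250 bases before and 50 bases after the start, at chr10:80167589-80167888 and chr10:80167921-80168220. Capitals mark the mild-cold response motif TCCCCGCC and the GC box GGGCGG, the core bound by Sp1, on either strand. Rbm3 is not in this set of sequences.
Cirbp start 1: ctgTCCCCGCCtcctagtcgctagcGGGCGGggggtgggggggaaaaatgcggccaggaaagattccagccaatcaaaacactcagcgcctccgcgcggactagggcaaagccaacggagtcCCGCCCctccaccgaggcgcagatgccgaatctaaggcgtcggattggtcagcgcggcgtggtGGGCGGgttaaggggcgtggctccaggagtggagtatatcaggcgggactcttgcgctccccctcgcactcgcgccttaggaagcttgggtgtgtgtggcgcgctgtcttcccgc
Cirbp start 2: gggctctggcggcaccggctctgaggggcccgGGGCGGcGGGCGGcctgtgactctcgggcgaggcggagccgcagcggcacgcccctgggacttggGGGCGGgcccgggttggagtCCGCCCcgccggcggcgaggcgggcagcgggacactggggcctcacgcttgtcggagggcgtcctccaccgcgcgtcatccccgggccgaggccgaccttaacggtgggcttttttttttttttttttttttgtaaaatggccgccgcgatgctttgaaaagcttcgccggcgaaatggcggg
The first window held 1 TCCCCGCC, beginning 247 bases before the annotated start, and GC boxes beginning 225, 128 and 65 bases before it. The second window held 4 GC boxes, beginning 218, 211, 153 and 133 bases before its start, and no TCCCCGCC. In these windows the marked motifs did not overlap. The first window also held the CCAAT box (CCAAT) at 181 and, on the other strand, 85 bases before the start. The E-box CACGTG, the heat shock element core GAANNTTC and the TATA box TATAAA were searched for on both strands and matched neither window. Of 32851 windows of this length in the RefSeq set, 5.38% held TCCCCGCC, 35.7% GGGCGG, 37.4% CCAAT, 7.15% CACGTG, 7.86% GAANNTTC and 13.6% TATAAA. The Cirbp windows were 65.7% and 70.0% G and C, against a median of 52.7% over all windows. A match is a match of letters and not evidence of binding in these samples.

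The Rbm3 probe set was brighter in every Hdh4/Q80 striatum than in any wild-type striatum. It read 7.86, 8.231 and 8.007 in Hdh4/Q80 replicates 7, 8 and 9, against 7.578, 7.626 and 7.433 in wild-type replicates 4, 5 and 6. Replicate 8 was the highest mutant and replicate 6 the lowest wild type, and the groups were separated by 0.234 between the lowest mutant and the highest wild type. The means were 8.033 ± 0.187 in Hdh4/Q80 and 7.546 ± 0.101 in wild type (log2 ± SD, n = 3 mice each). The difference was 0.49 ± 0.101 (log2, limma's SE), or 1.40-fold on the array scale. Without Hdh4/Q80 replicate 8 it was 0.388. It ranked 16 among the 12422 differences, counted from the most positive. In whole tissue, a change in the share of a cell type and a change in RNA per cell cannot be told apart.

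Cirbp differed in the same direction by less. It read 9.266, 9.218 and 9.491 in Hdh4/Q80 replicates 7, 8 and 9, against 9.125, 9.14 and 9.063 in wild-type replicates 4, 5 and 6. The groups did not overlap, but only 0.078 lay between the lowest mutant and the highest wild type, while the mutants themselves spanned 0.273. The means were 9.325 ± 0.146 in Hdh4/Q80 and 9.109 ± 0.041 in wild type, a difference of 0.22 ± 0.084, or 1.16-fold, at rank 289 of 12422. Hdh4/Q80 replicate 9 carried much of it: without that mouse the difference was 0.133, and without replicate 8 it was 0.27.

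**Figure D1:**
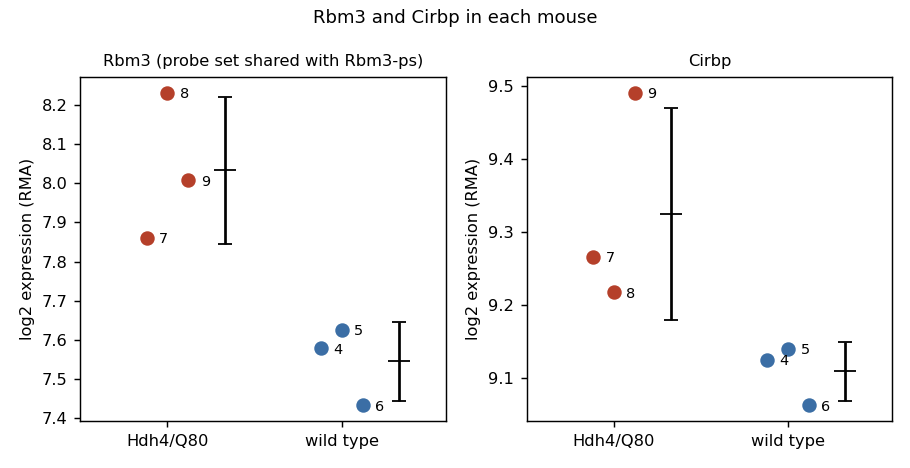
Log2 expression (RMA) of Rbm3, on a probe set shared with Rbm3-ps, and of Cirbp in each mouse; the y axes do not start at 0. Points are mice with their replicate numbers, and the black marks give the mean and SD of 3 mice. The lowest mutant lies 0.234 above the highest wild type for Rbm3 and 0.078 above it for Cirbp.

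These values stand against a background in which no transcript was called. With limma's moderated test and Benjamini-Hochberg adjustment, 0 of 12422 probe sets (0%) passed the threshold of 0.05 in Hdh4/Q80 against wild type, Rbm3 and Cirbp included; adjusted p-values began at 0.857. Before adjustment 634 probe sets had p under 0.05, with 360 of them higher and 274 lower in the mutants. Both members belong to the 829 probe sets (6.67%) in which all 3 mutants lay above all 3 wild types. The rule had used these values, so nothing is read from that count.

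**Figure D2:**
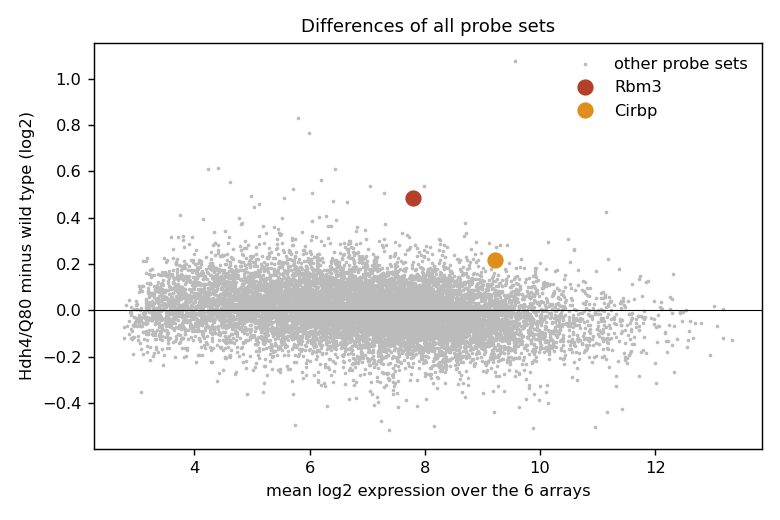
Difference between Hdh4/Q80 and wild type (log2) against the mean level over the 6 arrays for 12422 probe sets, each a point. Rbm3 (0.487) lies at the upper edge of the cloud and Cirbp (0.216) within its upper part.

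Within each genotype the 2 genes were not ordered alike in the mutants. Rbm3 was highest in Hdh4/Q80 replicate 8, the mouse with the lowest mutant Cirbp value, and Cirbp was highest in replicate 9. In wild type both genes ran in the same order, replicate 5 above 4 above 6. Over the 6 arrays, Rbm3 and Cirbp had a Pearson r of 0.664 and a Spearman rho of 0.829, and after removal of the group means r was -0.109. Without the 2 arrays farthest from the median of Rbm3 (Hdh4/Q80 replicate 8 and wild-type replicate 6), r was 0.963 over 4 arrays. These are descriptions of 6 arrays that share platform and normalization and were chosen with the group difference in view.

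The genes whose pattern over the 6 arrays was most like each member were taken from genes brighter than the median probe set and with an SD of at least 0.1. Among 2411 such genes, 59 had r above 0.9 with Rbm3 and 92 had r below -0.9. For Cirbp the counts were 13 and 10 of 2410. With 6 arrays, values this high arose for many genes, and 0 genes were above 0.9 for both. The 5 closest to Rbm3 were Kcnq1, a potassium channel subunit (r = 0.99), Pole3, a histone-fold subunit of DNA polymerase epsilon (0.986), Spata6 (0.985), Lta, the cytokine lymphotoxin alpha (0.984), and Igkv8-30, an immunoglobulin light chain segment (0.983). Kcnq1 read 8.7, 9.03 and 8.89 in Hdh4/Q80 and 8.57, 8.59 and 8.46 in wild type, in the same order of mice as Rbm3. Among the genes named for likeness, the probe sets of Kcnq1 and Sec14l2 carry the _r_at suffix and that of Igkv8-30 the _s_at suffix. These suffixes mark sets of less specific probes. The 3 most opposite were Lmf1, a lipase maturation factor (r = -0.994), Rala, a small GTPase (-0.986), and Sec14l2, a lipid-binding protein (-0.985).

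Closest to Cirbp were Pias2, a SUMO ligase (r = 0.98), Sumo3, a small ubiquitin-like modifier (0.955), Bgn, the proteoglycan biglycan (0.95), Pml, the organiser of PML nuclear bodies (0.942), and Id3, an inhibitor of basic helix-loop-helix factors (0.927). Sumo3 read 10.63, 10.62 and 10.98 in Hdh4/Q80 replicates 7, 8 and 9, against 10.6, 10.62 and 10.5 in wild-type replicates 4, 5 and 6. As with Cirbp, replicate 9 was the highest array. The most opposite were Sin3b, a corepressor (r = -0.979), Rgs2, a regulator of G-protein signalling (-0.975), and Slain1, a microtubule-associated protein (-0.974). None of the genes named for likeness passed limma's test over all probe sets (adjusted p = 0.857 for each).

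Other genes named for cold or built on the same RNA-binding domain were read on the same arrays. The pair was chosen by its values, so nothing is read from smaller differences in these lists. Rbm38 (0.23) was of the size of Cirbp (0.216). Of 8 genes of the cold shock domain family, which is unrelated in sequence to RBM3 and CIRBP, 4 were measured, with 3 below 0 and a median difference of -0.018 (0.004 without Hdh4/Q80 replicate 9 and -0.048 without replicate 8); 0 passed the adjusted test. Ybx1, the abundant messenger RNA packaging protein YB-1, read 11.78, 11.57 and 11.72 in Hdh4/Q80, against 11.91, 11.9 and 11.79 in wild type, a difference of -0.17 ± 0.079. All 3 mutants were below the wild types, with 11.78 in the highest mutant and 11.79 in the lowest wild type. The same order held for 431 of all 8251 genes, so nothing is read from it. Ybx2, Carhsp1 and Ybx3 had differences of -0.03, 0.02 and -0.01.

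Of 30 listed proteins with an RNA recognition motif or a related glycine-rich build, 22 were measured, 13 above 0 and 9 below, with a median of 0.009 (-0.014 without Hdh4/Q80 replicate 9 and 0.032 without replicate 7), where the median over all 8251 genes was -0.0072. None passed the adjusted test, and 1 of 22 had an unadjusted p under 0.05, against 4.3% of all genes. That gene was Rbm38, which stabilises p21 messenger RNA in human cells: it read 6.83, 6.89 and 6.85 in Hdh4/Q80, against 6.72, 6.64 and 6.53 in wild type (difference 0.23 ± 0.073). Hnrnpdl, a glycine-rich hnRNP, differed by 0.19 ± 0.093, with 0.09 and 0.10 on its other probe sets, and was highest in Hdh4/Q80 replicate 9 (9.93), as Cirbp was. Ewsr1 and Hnrnpd, further RNA-binding proteins, had differences of -0.15 ± 0.097 and 0.14 ± 0.092.

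Regulators and reported targets of the pair were measured for 11 of 17 genes, 4 above 0 and 7 below, with a median of -0.045 that became 0.023 without Hdh4/Q80 replicate 8 and -0.004 without wild-type replicate 6. Eif4e, the cap-binding translation factor, had the smallest p of this list. It read 5.79, 6.02 and 5.74 in Hdh4/Q80, against 5.5, 5.67 and 5.53 in wild type (0.28 ± 0.091), while its other probe set differed by -0.01. The probe set that gave 0.28 carries the _r_at suffix of less specific probes. Sp1, the factor that binds GC boxes, differed by -0.14 ± 0.075, Ntrk2, the BDNF receptor TrkB, by -0.27 ± 0.165 and Rpa2, a single-strand DNA-binding protein whose transcript CIRBP binds in human cells, by -0.22 ± 0.14. Rtn3, whose translation RBM3 promotes in mouse brain, differed by -0.03 ± 0.08, and by -0.12 ± 0.088 on its other probe set (values on the first from 11.03 to 11.25 in Hdh4/Q80 and from 11.1 to 11.23 in wild type). It lies outside the rule for named genes and was chosen after its value was seen.

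Heat shock genes were read on the same arrays. The part of body temperature in the values of this list, Rbm3 and Cirbp was not tested. Of 22 measured genes of 25 listed, 17 were below 0 and 5 above, with a median of -0.105, while 53.3% of all genes were below 0. None passed the adjusted test, and 2 had an unadjusted p under 0.05, against 4.3% of all genes. Dnajb5, a DnaJ cochaperone, read 8.0, 7.79 and 7.69 in Hdh4/Q80, against 7.96, 8.03 and 8.1 in wild type (-0.21 ± 0.089), and its groups overlapped. Stip1, the cochaperone linking Hsp70 to Hsp90, read 7.51, 7.33 and 7.59, against 7.9, 7.6 and 7.62 (-0.23 ± 0.102). Hspa4l and Dnaja1 differed by -0.18 ± 0.081 and -0.21 ± 0.097.

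The heat shock list also differed between mice of one genotype. Its mean, relative to the mean of the 6 arrays, was -0.019, -0.147 and 0.023 in Hdh4/Q80 replicates 7, 8 and 9, against 0.127, -0.035 and 0.05 in wild-type replicates 4, 5 and 6. The groups overlapped. The lowest array, Hdh4/Q80 replicate 8, was the array with the highest Rbm3 and the one that differed from the others as a whole. It was also lowest for the circadian, regulator and target, stress granule, glucocorticoid, astrocyte, microglia and red blood cell lists, and not for the others. Its low mean is therefore not particular to heat shock genes. The highest array for heat shock, wild-type replicate 4, had a middle wild-type Rbm3 value (7.578). Without Hdh4/Q80 replicate 8 the list's median became -0.048, without wild-type replicate 4 it became -0.062 and without wild-type replicate 5 it became -0.171.

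**Figure D3:**
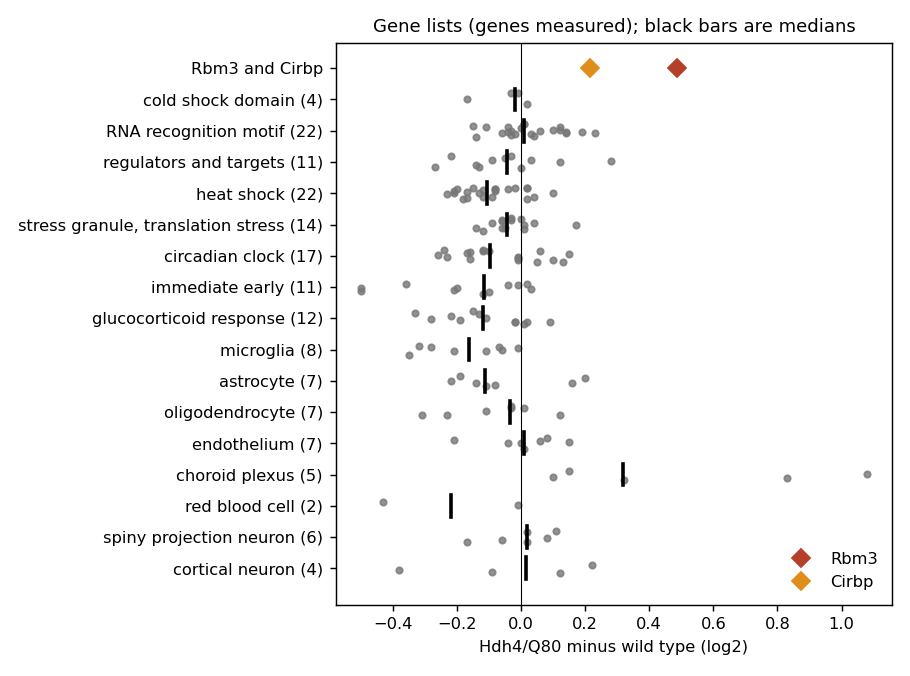
Difference between Hdh4/Q80 and wild type (log2) for each measured gene of 16 lists, with the number measured in brackets and the list median as a black bar; Rbm3 and Cirbp are shown at the top. Rbm3 (0.487) lies above every measured gene of each list except choroid plexus. It was chosen by its values, so nothing is read from this. Cirbp (0.216) lies below Rbm38 (0.23), Eif4e (0.28, with -0.01 on its other probe set) and the choroid plexus genes Ttr (1.08), Kl (0.83) and Folr1 (0.32). Neurod1 (0.22) is level with Cirbp.

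Circadian clock genes were measured for 17 of 22. Of these 12 were below 0 and 5 above, the median was -0.098, 0 passed the adjusted test and 1, Per2, a core clock repressor, had an unadjusted p under 0.05 (-0.23 ± 0.099), against 4.3% of all genes. The Per2 probe set was dim, at 4.87 to 5.1 in Hdh4/Q80 and 5.0 to 5.31 in wild type. Csnk1e, a clock kinase, differed by -0.26 ± 0.119, Nfil3, a repressor of D-box genes, by 0.13 ± 0.069 with -0.24 on its other probe set, and Npas2, a partner of BMAL1, by -0.17 ± 0.092. The list's median became 0.016 without Hdh4/Q80 replicate 8, so its sign rested on that mouse, and it was -0.056, -0.029 and -0.016 without wild-type replicates 4, 5 and 6. Arntl, which encodes BMAL1, and its counterphase output Dbp, both chosen after their values were seen, set wild-type replicate 4 apart. Arntl read 7.41, 7.38 and 7.45 in Hdh4/Q80 and 8.04, 7.45 and 7.47 in wild-type replicates 4, 5 and 6. Dbp read 8.4, 8.18 and 8.42 in Hdh4/Q80 and 7.9, 8.37 and 8.28 in wild type. Without wild-type replicate 4 the Rbm3 difference was 0.503 and that of Cirbp 0.224.

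Stress and handling lists were given for the same mice. Of 14 measured genes of stress granules and translational stress 9 were below 0 (median -0.044, and 0.004 with 7 of 14 below 0 without Hdh4/Q80 replicate 8), with Eif2ak4, the amino acid sensor GCN2, at 0.17 ± 0.074 and Atf4, a stress transcription factor, at -0.14 ± 0.082. Of 11 immediate early genes 9 were below 0 (median -0.116), where 53.3% of all genes were. This median was -0.2 without Hdh4/Q80 replicate 7 and -0.179 without wild-type replicate 4. The list's mean on each array was 0.148, -0.177 and -0.241 in Hdh4/Q80 replicates 7, 8 and 9. It was -0.147, 0.18 and 0.237 in wild-type replicates 4, 5 and 6, so the groups overlapped. Nr4a1, a nuclear receptor, read 8.4, 7.74 and 7.58 against 7.96, 8.51 and 8.74, and its groups overlapped too. Egr1, an activity-induced factor, read 9.87, 9.59 and 9.67 in Hdh4/Q80 and 10.04, 10.06 and 10.11 in wild type (-0.36 ± 0.084; 0.32 on a dimmer probe set). Of 12 glucocorticoid response genes 9 were below 0 (median -0.12). Without Hdh4/Q80 replicate 8 the median was -0.056, and without wild-type replicates 5 and 6 it was -0.062 and -0.073. The metallothionein Mt1 read 11.6, 11.46 and 11.66 in Hdh4/Q80 and 11.97, 11.72 and 11.88 in wild type (-0.28 ± 0.087), and Mt2 differed by -0.33 ± 0.105. In these lists 0 genes passed the adjusted test. At an unadjusted p under 0.05 were Egr1 in the immediate early list and 3 genes of the glucocorticoid list, Mt1, Mt2 and Ddit4, a stress-induced inhibitor of mTOR (-0.22 ± 0.094), where 4.3% of all genes had such a p.

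**Figure D4:**
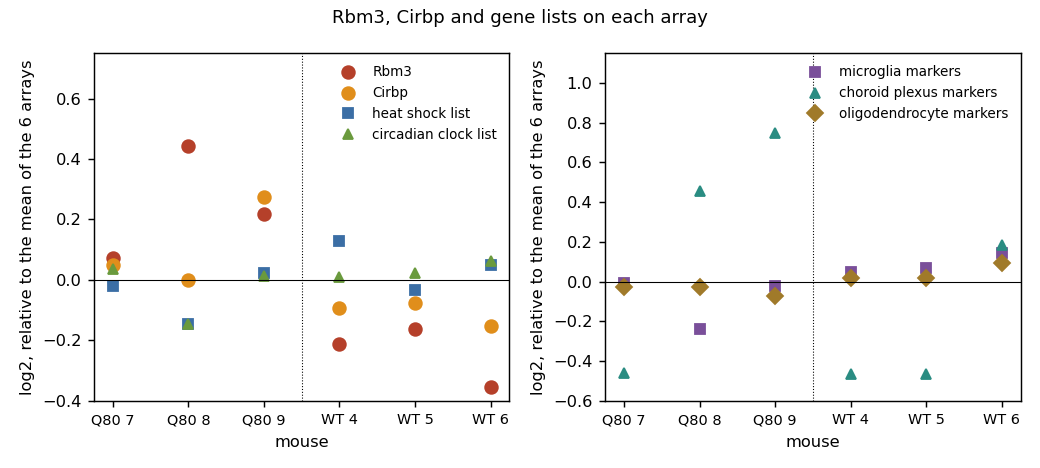
Log2 values on each array relative to the mean of the 6 arrays: left, Rbm3, Cirbp and the means of the heat shock and circadian lists; right, the means of 3 marker lists. Hdh4/Q80 mice are left of the dotted line. Hdh4/Q80 replicate 8 has the highest Rbm3 value and the lowest microglia mean (-0.237). It is also the lowest array for the heat shock and circadian means (-0.147 for each).

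Cell type markers were read on the same arrays. All 8 measured microglia markers of 8 were below 0 (median -0.163), 4 with an unadjusted p under 0.05 and 0 past the adjusted threshold. Over all genes 53.3% were below 0 and 4.3% had such a p. The 4 were C1qa, C1qb, C1qc and Tyrobp. Of the others, Csf1r differed by -0.11 ± 0.096, Ctss by -0.07 ± 0.095, Aif1 by -0.06 ± 0.086 and Cx3cr1 by -0.01 ± 0.082. The groups overlapped for each of these. C1qb differed by -0.35 ± 0.127 on its brightest probe set and by 0.24 ± 0.107 on a dimmer one. With the probe sets of each gene averaged, the list's median was -0.098, with 8 of 8 below 0. The summed level of the list on the linear scale was 3185 to 3892 in Hdh4/Q80 and 4110 to 4386 in wild type. Such a sum gives most weight to the brightest genes, here C1qc. C1qc, a complement subunit made by microglia, read 10.08, 9.69 and 10.09 in Hdh4/Q80 and 10.21, 10.29 and 10.31 in wild type. The list mean was lowest in the mouse with the highest Rbm3, Hdh4/Q80 replicate 8, and highest in the mouse with the lowest, wild-type replicate 6 (-0.237 and 0.146). Replicate 8 was lowest for several other lists too, as given above, so this is not particular to microglia. The part of microglia in the Rbm3 values was not tested. Without replicate 8 the list's median was -0.107.

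All 5 measured choroid plexus markers of 6 were above 0 (median 0.317) and 0 passed. The median was 0.532 without Hdh4/Q80 replicate 7, 0.152 without replicate 9 and -0.106, with 4 of 5 markers below 0, with array weights, which gave Hdh4/Q80 replicate 7 a weight of 6.19. Their summed level was 1955 to 4795 in Hdh4/Q80 and 1922 to 3126 in wild type. Ttr, transthyretin, the main secreted product of this epithelium, read 8.46, 10.59 and 11.24 in Hdh4/Q80 replicates 7, 8 and 9, against 8.48, 8.32 and 10.26 in wild-type replicates 4, 5 and 6. The mice of low Ttr included mutant replicate 7 and wild-type replicates 4 and 5, and among them Rbm3 was 7.86 in the mutant and 7.578 and 7.626 in wild type. Cirbp was 9.266 in that mutant and 9.125 and 9.14 in those wild types. This sets 1 mouse beside 2, and the part of choroid plexus in the Rbm3 and Cirbp values was not tested.

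The remaining marker lists had medians of -0.111 (astrocytes, 5 of 7 below 0), -0.035 (oligodendrocytes, 5 of 7), 0.008 (endothelium, 2 of 7), 0.014 (cortical projection neurons, 2 of 4), 0.017 (spiny projection neurons, 2 of 6) and -0.22 (red blood cells, 2 of 2). Without Hdh4/Q80 replicate 8 the astrocyte median was -0.021, the oligodendrocyte median -0.104 and the endothelial median 0.042. Without wild-type replicate 6 the spiny neuron median was -0.081 and the cortical neuron median 0.177. Their summed levels in Hdh4/Q80 and wild type overlapped in the astrocyte, endothelial and both neuron lists. For oligodendrocytes the sums were 11456 to 12240 in Hdh4/Q80 and 12484 to 13231 in wild type, and for red blood cell genes 2537 to 2822 and 3192 to 3764. In these lists 0 genes passed the adjusted test. An unadjusted p under 0.05 was held by 2 of 7 oligodendrocyte genes and 1 of 2 red blood cell genes, all lower in Hdh4/Q80. Of 7 astrocyte genes 1 higher and 1 lower held such a p, and of 4 cortical neuron genes 1 higher. In the endothelial and spiny neuron lists 0 did, and over all genes 4.3% did. Mobp, a myelin protein, differed by -0.31 ± 0.08 (-0.15, -0.50 and -0.51 on its other probe sets) and Hba-a1, alpha-globin, by -0.43 ± 0.085. Alas2, the heme synthesis enzyme of red blood cells and the other gene of that list, differed by -0.01 ± 0.069. Linear sums are set mostly by the brightest genes. For red blood cells this was Hba-a1 (11.15 to 11.77, with Alas2 at 8.0 to 8.12). For oligodendrocytes the brightest were Mbp, which differed by 0.01 ± 0.08, and Mobp. The part of these cells in the Rbm3 and Cirbp values was not tested. The distance between the 3′ and 5′ control probe sets of Actb, a measure of RNA integrity, was 0.634, 0.858 and 0.855 in Hdh4/Q80 and 0.73, 0.566 and 0.623 in wild type, and that of Gapdh was 0.116 to 0.33 and 0.221 to 0.259. The groups overlapped for both, with the largest Actb distances in Hdh4/Q80 replicates 8 and 9, the mice with the highest Rbm3, and their part was not tested.

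The measured genes nearest each member in the reference gene order were read on the same arrays. The 10 nearest measured genes of Rbm3, 5 on each side, had differences from -0.18 (Pcsk1n) to 0.12 (Cybb), with a median of 0.02. Wdr13 and Ebp, the nearest measured on either side, were at 0.02 and 0.04. Genes without a probe set of their own were passed over, so these need not be adjacent. The 10 nearest of Cirbp ran from -0.17 (Apc2) to 0.23 (Dazap1, itself an RNA-binding protein), with a median of -0.03. Midn and Efna2, the nearest measured on either side of Cirbp, were at -0.14 and 0.08. The Dazap1 difference was in the direction of Cirbp and of similar size (0.216 for Cirbp). Of these 20 genes 0 passed limma's adjusted test, and the neighbours were listed after the values of the members were known.

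**Figure D5:**
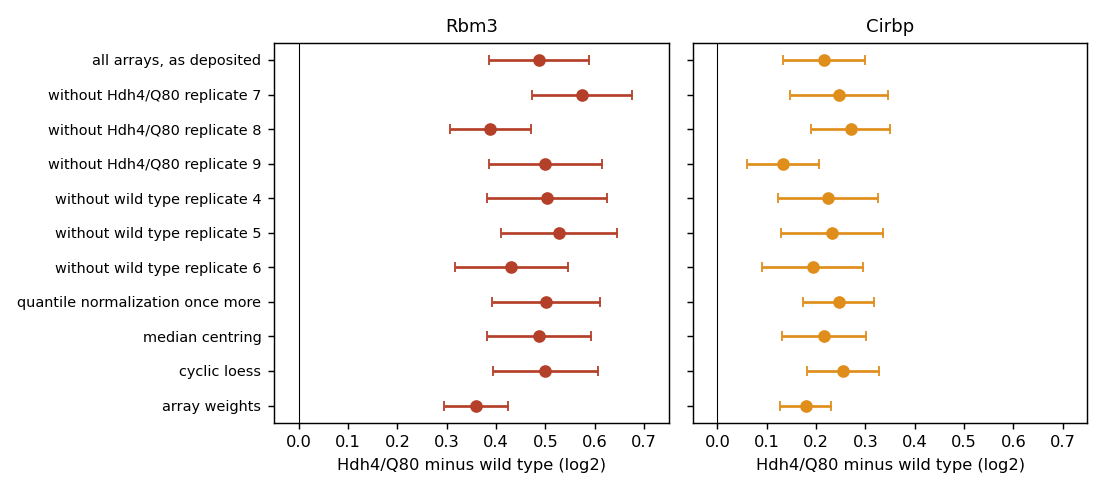
Difference between Hdh4/Q80 and wild type (log2) for Rbm3 and Cirbp with all arrays as deposited and under 10 other settings; bars are limma's standard errors. Rbm3 ranges from 0.359 with array weights to 0.574 without Hdh4/Q80 replicate 7, and Cirbp from 0.133 without replicate 9 to 0.27 without replicate 8.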

How the data were processed

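Striatal RNA of 6 mice was labelled with biotin and hybridised to Affymetrix arrays, per the labels' protocols. The authors deposited 1 log2 value per probe set and array, computed by RMA (affy), per the submitters' processing notes; the sources used here do not give versions, and scanner files were not used. RMA shrinks differences of dim and of near-saturated probe sets. Of 12488 probe sets, 66 controls were left out. The platform annotation gave 10833 of the others 1 gene symbol, 396 several and 1193 none; 8237 of 8251 genes matched the reference table (GRCm38.p6), used for names and gene order. The brightest single-gene probe set stood for each gene other than Rbm3.

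Groups and replicate numbers came from the sample titles. Hdh4/Q80 was compared with wild type in limma 3.58.1 (R 4.3.3; lmFit and eBayes; degrees of freedom 4 residual, 5.81 prior), adjusting by Benjamini-Hochberg over all 12422 probe sets at a threshold of 0.05. The fit was also run on simulated data with independent noise and no outlying array, as a check of the code. That check does not bear on the differences given here. The members and the 16 lists (205 entries, 159 measured) were chosen with earlier results of these data known. The text names the members, up to 4 genes of smallest p per list, and the 5 most and 3 least like genes of each member by Pearson r; since Rbm3 has no probe set of its own, the shared one was used. For the stress, handling and marker lists not every one of these is named. Some genes outside this rule are named too, among them Penk, Mbp, Rtn3, Arntl, Dbp and the neighbours in gene order. Settings tried were leaving out each mouse, renewed quantile normalization, median centring, cyclic loess, array weights, leaving out the dimmest 40% of probe sets, trended and robust moderation, and averaging the probe sets of a gene.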

Additional observations from a re-analysis of the deposited data

How the results depend on the processing

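The Rbm3 and Cirbp differences stayed above 0 in all 10 settings that could change them. Every mutant lay above every wild type, so leaving out a mouse or weighting arrays could not change the sign. Nothing is read from the sign in those settings. Each difference moved by less than the SD among mutants (0.187 and 0.146). Some moves exceeded the wild-type SD (0.101 and 0.041), among them that of Rbm3 with array weights and those of Cirbp without Hdh4/Q80 replicates 8 and 9. With 1 mouse left out, Rbm3 ran from 0.388 to 0.574 and Cirbp from 0.133 to 0.27; array weights, which gave Hdh4/Q80 replicates 7, 8 and 9 weights of 6.19, 0.228 and 0.405, led to 0.359 and 0.179. The mean over probe sets gave no value for either gene, since each has 1 probe set. No paired analysis was possible because the groups share no replicate numbers.

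The number of probe sets past the adjusted threshold was 0 in all 12 settings, and likewise for the genes of the lists. Probe sets at an unadjusted p under 0.05 numbered 634 with all arrays, 251 to 1153 with 1 mouse left out, 1812 with array weights and 338 once the dimmest 40% were removed. The correlation of Rbm3 with Cirbp was 0.664, 0.829 by rank, -0.109 after removal of group means and 0.963 without the 2 arrays farthest from the median of Rbm3, a setting chosen after seeing the data; the cause was not tested. List medians moved by more than the SD between mutants in 19 of 208 settings. With array weights the choroid plexus median was -0.106, the circadian median 0.022 and the immediate early median -0.006. The number of arrays limits the precision.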
